A study of Mus musculus with 16 samples.

Results

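Thrsp, Mlxipl, Fads2 and Me1 encode a pair of lipogenic regulators and a pair of enzymes of fatty acid metabolism, and their transcripts were followed in the liver of mice fed coffee diterpenes. The 4 genes were taken as the probes of the array whose single platform gene symbol is one of these names. This gave 4 probes of 9596, or 4 of 8923 genes and unnamed probes, and each gene had 1 probe with a value on all 16 arrays. The tested mice were 8 female APOE3-Leiden (E3L) mice fed a Western-type diet, diet W, with cafestol at 0.04% and kahweol at 0.02% by weight for 4 weeks from 10 weeks of age. They were set against 7 female control mice of the same strain and age on diet W alone, which held 15 g of fat and 0.25 g of cholesterol per 100 g. All mice carried the APOE3-Leiden transgene, a human apolipoprotein E variant that slows the clearance of lipoproteins, on a background over 99% C57BL6/JIco.

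Each array held poly(A) RNA of 1 treated liver in Cy5 and control-diet liver RNA in Cy3. The 2 arrays of a mouse carried the same RNA and were averaged. No label names a single control mouse, so the mean ratio was tested against 0 and the spread among control mice is not in the test. With 0 arrays of swapped dyes, a dye effect specific to a gene cannot be told apart from the diet. The values are log2 ratios as deposited, and the sources used here do not say which channel is on top. A positive value is therefore a difference between the diets of known size and unknown direction. The anchors of the sign were the glutathione S-transferase Gstm1 at -2.48 ± 0.23 and the bile acid enzyme Cyp7a1 at 1.56 ± 0.38 (SD, n = 8 mice). Genes of 1 sign lay on the same side as each other whichever channel is on top. The arrays carried 8094 to 9314 values each. Arrays of the same mouse correlated at 0.752 to 0.912 over probes, and arrays of different mice at 0.15 to 0.81.

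The liver turns surplus sugar into fatty acids through a set of enzymes that rise together after feeding. Mlxipl encodes ChREBP, a transcription factor that is activated by sugar metabolites, pairs with Mlx and binds E-box-like elements of lipogenic genes. Thrsp encodes Spot 14, a small protein induced by thyroid hormone and carbohydrate that promotes fatty acid synthesis. Fads2 encodes the delta-6 desaturase, the entry step from dietary linoleic and alpha-linolenic acid to long polyunsaturated fatty acids. Me1, cytosolic malic enzyme, makes NADPH for fatty acid synthesis and is induced by thyroid hormone and by the oxidative stress factor NRF2.

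The RefSeq promoter windows of the 4 genes, from 250 bases before to 50 bases after the transcript start (build GRCm38.p6), are shown 5′ to 3′ because the genes share regulators by background but differed in sign. They lie at chr7:97417501-97417800 (minus strand) for Thrsp, chr5:135089640-135089939 (plus strand) for Mlxipl, chr19:10101454-10101753 (minus strand) for Fads2 and chr9:86695865-86696164 (minus strand) for Me1. Capitals mark matches on either strand to the E-box CACGTG, the antioxidant response element core TGACNNNGC, the CCAAT box, the GC box GGGCGG, the nuclear receptor half-site AGGTCA and the TATA box TATAAA.
Thrsp: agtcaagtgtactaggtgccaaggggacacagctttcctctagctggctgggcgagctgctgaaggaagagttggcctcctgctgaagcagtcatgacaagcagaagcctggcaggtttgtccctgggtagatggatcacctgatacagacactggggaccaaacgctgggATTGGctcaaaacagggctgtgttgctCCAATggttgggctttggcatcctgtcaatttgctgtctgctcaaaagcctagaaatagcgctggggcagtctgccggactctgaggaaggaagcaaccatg
Mlxipl: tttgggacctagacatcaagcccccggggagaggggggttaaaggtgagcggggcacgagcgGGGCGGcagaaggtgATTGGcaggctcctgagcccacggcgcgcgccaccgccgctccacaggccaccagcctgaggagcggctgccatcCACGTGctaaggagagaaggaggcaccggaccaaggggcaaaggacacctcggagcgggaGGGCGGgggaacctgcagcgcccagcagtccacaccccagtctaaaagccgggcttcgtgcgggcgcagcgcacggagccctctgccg
Fads2: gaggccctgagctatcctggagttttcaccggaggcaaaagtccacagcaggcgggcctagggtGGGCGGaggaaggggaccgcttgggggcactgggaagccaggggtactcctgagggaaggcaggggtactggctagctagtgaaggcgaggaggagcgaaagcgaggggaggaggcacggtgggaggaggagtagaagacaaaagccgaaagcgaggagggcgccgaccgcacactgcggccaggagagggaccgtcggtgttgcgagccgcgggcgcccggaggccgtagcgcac
Me1: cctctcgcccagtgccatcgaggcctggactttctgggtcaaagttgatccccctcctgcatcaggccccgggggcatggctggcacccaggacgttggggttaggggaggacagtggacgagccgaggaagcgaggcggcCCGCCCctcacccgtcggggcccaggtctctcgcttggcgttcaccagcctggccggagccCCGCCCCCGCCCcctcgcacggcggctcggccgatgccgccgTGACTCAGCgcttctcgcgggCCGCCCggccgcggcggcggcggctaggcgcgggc

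The Mlxipl window held an E-box that began 98 bases before the start, and 7.15% of 32851 RefSeq windows of 300 bases held one. The Me1 window held the antioxidant element core that NRF2 binds, spelled TGACTCAGC and beginning 6 bases before the start, against 12.4% of windows. Thrsp had the CCAAT box on each strand, and 37.4% of windows held it. Fads2 had 1 GC box and no other match, and 35.7% of windows held a GC box. The exact receptor half-site and the TATA box were in none of the 4 windows, and in 16.3% and 13.6% of all windows. Receptor elements of variant spelling were not searched for. Mlxipl and Me1 each have 2 RefSeq windows, and only the one nearest the annotated gene start is shown. These letters are descriptions of the windows and not sites of binding.

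All 4 genes differed from 0 in all 8 mice. Thrsp, Mlxipl and Fads2 were positive, on the side of Cyp7a1, and Me1 was negative, on the side of Gstm1. At an adjusted p under 0.05 (limma, Benjamini-Hochberg over 8348 features) all 4 passed, against 43.4% of all features. Of the 4, 3 were positive, against 18.0% of features, and 1 was negative, against 25.4%. Positive values in all 8 mice were found for 7.27% of features and negative ones for 10.8%. Thrsp and Mlxipl also passed a size of 1.5-fold, which 0.755% of features did. The genes were picked with these results known, so the counts describe them only.

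Thrsp lay farthest from 0 of the 4. The mouse values were 0.26, 0.43, 0.68 and 0.96 in the SY mice and 0.63, 0.96, 1.04 and 1.29 in the TP mice, where SY and TP are the 2 series of mouse identifiers, 4 mice each, whose meaning no label states. The lowest mouse was SY522ROB, with a ratio of 1.2 on both of its arrays, and the highest TP4205, with 2.4 and 2.5. The 2 series overlapped. The mean log2 ratio was 0.78 ± 0.34 (SD, n = 8), a 1.72-fold difference with a 95% interval of 0.57 to 0.99 on the log2 scale (limma, adjusted p = 6.94e-05). It ranked 11 from the top of 8348 features.

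Mlxipl was the most even of the 4 over mice. Its values were 0.49, 0.63, 0.72 and 0.81 in SY mice and 0.54, 0.54, 0.68 and 0.93 in TP mice. Every array read between 1.4-fold and 1.9-fold. The mean was 0.67 ± 0.15 (SD, n = 8), a 1.59-fold difference (interval 0.56 to 0.77, limma, adjusted p = 2.46e-06), and its rank was 16 from the top. The mouse SY522ROB, lowest for Thrsp, was the highest of the SY mice for Mlxipl.

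Fads2 spread more widely for its size. It read 0.14, 0.54, 0.77 and 0.81 in SY mice and 0.26, 0.37, 0.54 and 0.81 in TP mice. SY522ROB was again the lowest, at 1.1-fold on both arrays, which is the smallest step of the deposited ratios away from 1. The mean was 0.53 ± 0.26 (SD, n = 8), a 1.44-fold difference (interval 0.37 to 0.69, limma, adjusted p = 0.000168), and it ranked 40 from the top.

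Me1 was the member on the opposite side. Its values were -0.49, -0.38, -0.20 and -0.14 in SY mice and -0.72, -0.59, -0.49 and -0.49 in TP mice. SY522ROB was the SY mouse farthest from 0, level with the pair of TP mice nearest to 0. The mean was -0.43 ± 0.19 (SD, n = 8), a 1.35-fold difference (interval -0.56 to -0.31, limma, adjusted p = 0.000115), and it ranked 88 from the bottom. Me1 passed in SY mice (-0.30, adjusted p = 0.0323) and in TP mice (-0.57, adjusted p = 0.00606) analysed alone, but not on the arrays of code c3z alone (-0.28, adjusted p = 0.0539).

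**Figure D1:**
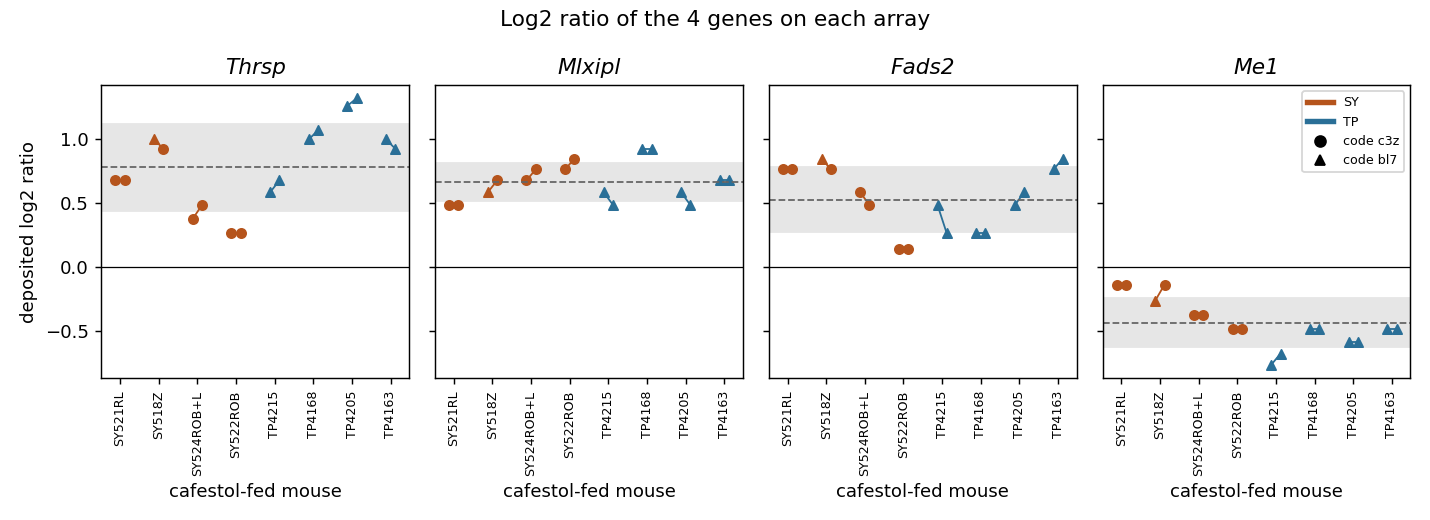
Deposited log2 ratio (vertical axis) of Thrsp, Mlxipl, Fads2 and Me1 on each of the 16 arrays, with the 2 arrays of a mouse joined. Dashed lines and grey bands are the mean ± SD over 8 mice; circles and triangles are the array codes c3z and bl7. Thrsp, Mlxipl and Fads2 lie above 0 and Me1 below 0 on every array.

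**Figure D2:**
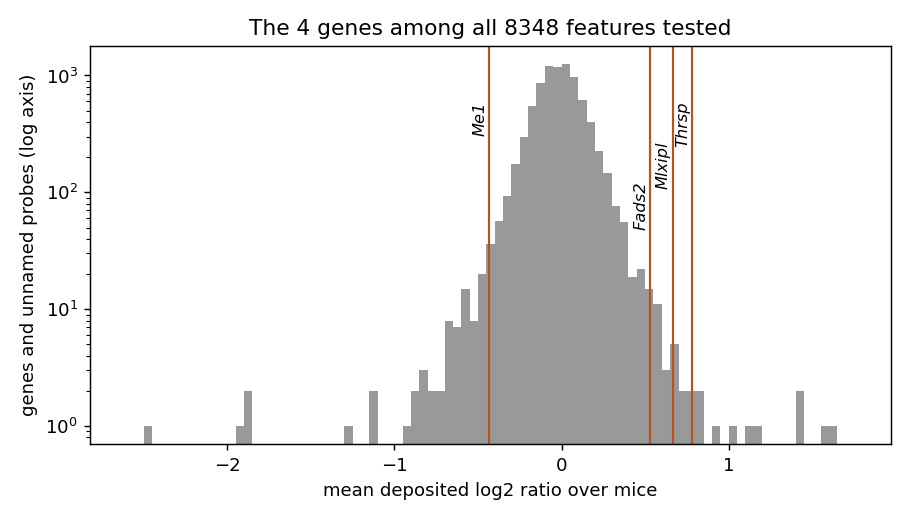
Histogram of the mean deposited log2 ratio (horizontal axis) of 8348 genes and unnamed probes, with a log count axis and lines at the 4 genes. Thrsp (0.78), Mlxipl (0.67) and Fads2 (0.53) lie in the upper tail and Me1 (-0.43) in the lower tail.

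The spread between mice and that between duplicate arrays of the same RNA are given side by side as a description. For Thrsp the SD between duplicate arrays was 0.050, and that between mice was 6.87 times as large. The mouse SD of Thrsp exceeded that of 98.9% of the 7312 features with a value on all arrays. The corresponding ratios were 5.03 for Me1, 3.55 for Fads2 and 2.91 for Mlxipl, and the median feature had a duplicate SD of 0.067 and a mouse SD of 0.10. Me1 gave the same ratio on both arrays in 6 of 8 mice, Mlxipl and Fads2 in 3 each and Thrsp in 2. The rounding of ratios to 1 decimal makes this easier. The largest gap between duplicates was 0.22, for Fads2 in TP4215.

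The series of identifiers nearly coincide with the array codes: TP arrays carry bl7 and SY arrays c3z, apart from 1 of the arrays of SY518Z. Among the 4 genes, 2 differed most between the series. Thrsp averaged 0.58 ± 0.30 in SY and 0.98 ± 0.27 in TP mice (SD, n = 4 each), a difference of -0.40 (interval -0.73 to -0.07, limma, adjusted p = 0.133, unadjusted 0.0225). Without SY518Z, the SY mouse with the highest Thrsp value, that difference was -0.52 and passed (adjusted p = 0.0322). Me1 averaged -0.30 ± 0.16 in SY and -0.57 ± 0.11 in TP mice, a difference of 0.27 (interval 0.09 to 0.45, adjusted p = 0.0781, unadjusted 0.00721). Both genes thus lay farther from 0 in TP mice, but 0 of 4 members passed this comparison in limma and 2 had an unadjusted p under 0.05, against 5.70% and 24.8% of all features. For Fads2 the difference was 0.07 (interval -0.25 to 0.38, adjusted p = 0.792) and for Mlxipl -0.01 (interval -0.21 to 0.20, adjusted p = 0.981). The SD over all probes was 0.2077 to 0.2595 on TP arrays and 0.1731 to 0.2085 on c3z arrays, with 0.2544 on the bl7 array of SY518Z. The part of this wider spread in the differences of Thrsp and Me1 was not tested.

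No relation between the 4 genes over mice passed its test. Over 8 mice and 6 pairs the correlations were between -0.569 and 0.576, and 0 of 6 passed in the exact two-sided permutation test, with 0 at an unadjusted p under 0.05. Fads2 and Me1 gave the highest Pearson r, 0.576 (p = 0.14, adjusted p = 0.428; Spearman rho 0.482, p = 0.238, adjusted p = 0.713), and 0.759 without the 2 mice farthest from the median of Fads2, SY522ROB and TP4168. Mlxipl and Fads2 gave the lowest, -0.569 (p = 0.143, adjusted p = 0.428; rho -0.479, p = 0.229, adjusted p = 0.713), and -0.299 without TP4168 and SY521RL. Thrsp with Mlxipl, the regulator known to act on it, gave -0.164 (p = 0.696, adjusted p = 0.844; rho -0.145, p = 0.729, adjusted p = 0.875), and 0.433 without SY522ROB and TP4205. Thrsp with Fads2 gave 0.386 (p = 0.337, adjusted p = 0.674; rho 0.327, p = 0.421, adjusted p = 0.841), and 0.103 without the same pair of mice. Thrsp with Me1 gave -0.0812 (p = 0.844, adjusted p = 0.844; rho -0.16, p = 0.706, adjusted p = 0.875), and 0.0499 without them. Mlxipl with Me1 gave -0.11 (p = 0.791, adjusted p = 0.844; rho -0.0614, p = 0.89, adjusted p = 0.89), and 0.43 without TP4168 and SY521RL. These values pool SY and TP mice, whose means differed by -0.40 for Thrsp and 0.27 for Me1, though neither difference passed. With each series' mean taken off, and the values permuted within a series (576 exact permutations, two-sided), the r of Thrsp with Me1 was 0.735 (p = 0.0799, adjusted p = 0.25; rho of within-series ranks 0.564, p = 0.215, adjusted p = 0.49), opposite in sign to the pooled value. Thrsp with Fads2 then gave 0.609 (exact permutation p = 0.165, adjusted p = 0.26) and Fads2 with Me1 0.718 (p = 0.0833, adjusted p = 0.25). Mlxipl gave -0.23 with Thrsp, -0.571 with Fads2 and -0.137 with Me1 (exact permutation p = 0.604, 0.174 and 0.719, adjusted p = 0.719, 0.26 and 0.719). After centring, 0 of 6 relations passed and 0 had an unadjusted p under 0.05. Among Thrsp, Fads2 and Me1 the centred r was 0.609 to 0.735, and without the 2 mice farthest from the median 0.51 to 0.617. The centring was chosen after seeing the data.

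The named genes closest to each member over the 8 mice were taken by Pearson r. Each was picked as one of the 3 highest among the 417 or 418 other named genes with 8 values and a mouse SD of at least 0.2, so a high r comes with the choice, and it is a description with no chance value. All shared arrays and the control RNA with the member. The closest to Thrsp were Hpd, an enzyme of tyrosine breakdown (r = 0.911, log2 ratio 0.73 ± 0.22), the uridine phosphorylase Upp2 (r = 0.904, 1.02 ± 0.51) and Bex1 (r = 0.894), whose own mean of -0.10 did not pass. The closest to Mlxipl was G6pc, glucose-6-phosphatase, a known ChREBP-responsive gene (r = 0.885, rho 0.850), which like Mlxipl was highest in TP4168. Zfp36l1, which binds mRNA for decay, followed with r = 0.860 and a mean of opposite sign, -0.20 ± 0.21, and then the mitochondrial carrier Slc25a25 (r = 0.742). Me1 was followed most closely by Elovl5, the elongase that acts after Fads2 (r = 0.905, mean 0.01 ± 0.31), by the acyl-CoA-binding protein Dbi (r = 0.871, mean -0.28 ± 0.21) and by Apoc2, the cofactor of lipoprotein lipase (r = 0.842). Dbi differed between series (SY mice -0.10, TP mice -0.46, adjusted p = 0.0163 in limma), as did Apoc2 (SY mice 0.03, TP mice -0.32, adjusted p = 0.0458). Fads2 had less close matches, the protease inhibitor Serpina1b (r = 0.803), the methyltransferase Bhmt (r = 0.706) and Serpina1c (r = 0.694), of which 0 passed the diet test in limma (unadjusted p under 0.05 in 1, Bhmt, at 0.0302). Bhmt passed without TP4215 (adjusted p = 0.0415) and Serpina1c without SY522ROB (0.0122). With the series means taken off, the r of the 12 matches was 0.617 to 0.907, with Apoc2 and Dbi, at 0.617 and 0.692, the lowest. Probes of the Serpina1 family can bind the transcripts of its near-identical copies.

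**Figure D3:**
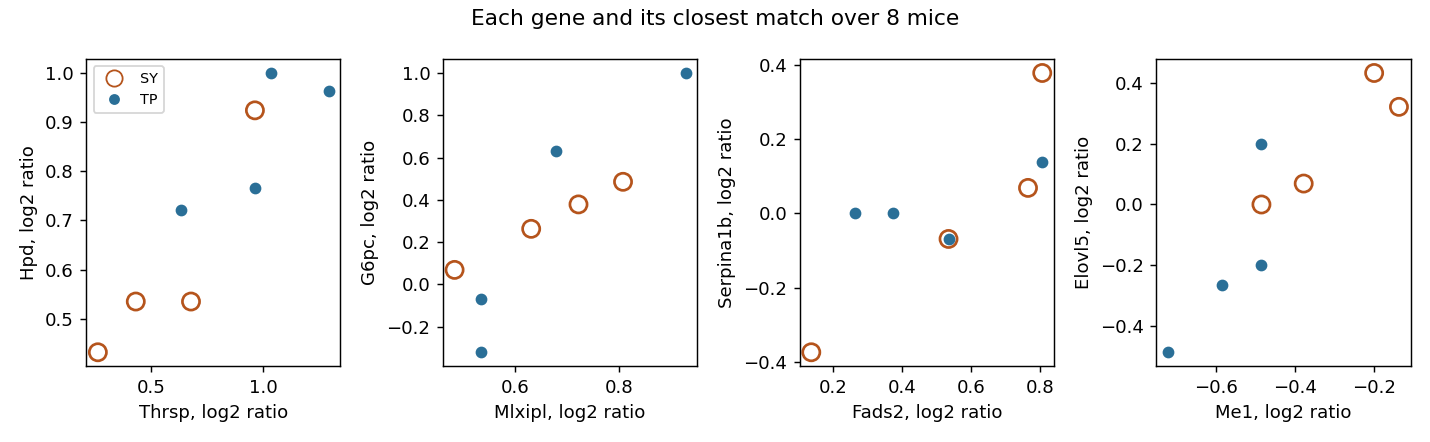
Mouse log2 ratio of each gene (horizontal axes) against that of the named gene closest to it by Pearson r (vertical axes), 8 mice per panel, with SY mice as open rings and TP mice as filled points. The panels show Thrsp with Hpd (r = 0.911), Mlxipl with G6pc (0.885), Fads2 with Serpina1b (0.803, the lowest left point being SY522ROB) and Me1 with Elovl5 (0.905).

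Close relatives of the members were nearer to 0 than the members. Mid1ip1, the paralog of Thrsp that activates acetyl-CoA carboxylase, was at 0.10 ± 0.15 (limma, adjusted p = 0.116), and passed only when SY521RL was left out (adjusted p = 0.0391) among the 8 mice. Mlxip, the paralog of Mlxipl, was at -0.03 ± 0.11 (adjusted p = 0.628). Me2, the mitochondrial malic enzyme, was negative like Me1 but smaller, at -0.19 ± 0.06 in 8 of 8 mice (adjusted p = 0.000347). Fads1, Fads3 and Me3 were not analysed here. The cDNA probes of such families can also bind a paralog's transcript.

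Genes of the 7 lists drawn up around lipogenesis were found on both sides of 0. The lists include genes known to respond to ChREBP or thyroid hormone, so they also hold genes of other pathways, such as the gluconeogenic enzyme Pck1. Of 104 genes on the 7 lipogenic lists together 53 were tested. Of these, 16 were positive (30.2%, against 18.0% of all features), 12 negative (22.6%, against 25.4%) and 25 not called, with a median of 0.02 beside -0.02 over all features. Without the 4 members 13 were positive and 11 negative of 49.

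Of 19 listed lipogenic regulators 13 were tested. Of these, 4 were positive (30.8%, against 18.0% of all features) and 2 negative (15.4%, against 25.4%), with a median of 0.06. Beside Thrsp and Mlxipl the positive ones were the E-box factor Usf2 (0.20 ± 0.06, limma, adjusted p = 0.000193) and Mlx, the partner of ChREBP (0.16 ± 0.10, adjusted p = 0.0033), each positive in 8 of 8 mice. The negative ones were the coactivator Ppargc1b (-0.24 ± 0.06, adjusted p = 7.45e-05) and the adipogenic receptor Pparg (-0.19 ± 0.08, adjusted p = 0.000547), each negative in 8 of 8 mice. Rxra, the partner of many nuclear receptors, was at 0.12 ± 0.16 and did not pass (adjusted p = 0.0689). Its probes gave 0.25 and -0.01, and it passed without SY524ROB+L (0.0254) or SY522ROB (0.0488).

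The tested core enzymes of fatty acid synthesis other than Me1 were near 0, apart from Scd1. Only 5 of 12 listed were tested, and nothing is known here of the others. Of the 5, 0 were positive (18.0% of all features were), 2 negative (40%, against 25.4%) and 3 not called (median -0.02). Without Me1, 1 of 4 was negative. At an unadjusted p under 0.05 in limma, 0 were positive. The negative pair was Me1 and Scd1, the delta-9 desaturase that makes oleic acid (-0.33 ± 0.24, limma, adjusted p = 0.00222, negative in 6 of 8 mice). Fatty acid synthase Fasn was at -0.02 ± 0.15 (adjusted p = 0.8), and its probes read -0.04 and 0.01. The citrate carrier Slc25a1 was at 0.02 ± 0.17 (adjusted p = 0.817), with -0.12 in SY and 0.15 in TP mice (adjusted p = 0.0427 for the difference).

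Of 16 listed elongases and desaturases 7 were tested, and they went both ways. Of the 7, 2 were positive (28.6%, against 18.0% of all features), 3 negative (42.9%, against 25.4%) and 2 not called (median 0.01). Fads2 and Elovl2, the elongase of long polyunsaturated fatty acids (0.28 ± 0.18, limma, adjusted p = 0.00134, 8 of 8 mice), were the positive pair. Elovl1, which extends saturated chains, was at -0.44 ± 0.10 in 8 of 8 mice (adjusted p = 4.89e-06), followed on the negative side by Scd1 and the reductase Cyb5r3 (-0.10 ± 0.08, adjusted p = 0.0232). Cyb5r3 did not pass without SY521RL (0.0558) or TP4168 (0.0665). Elovl5 and Elovl3, at 0.01 and 0.06, did not pass. The desaturases therefore had opposite signs, Fads2 at 0.53 and Scd1 at -0.33.

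Genes of the NADPH supply list, Me1 among them, had both signs. The list takes in pentose phosphate enzymes and the mitochondrial malic enzyme, and is not limited to enzymes that make NADPH themselves. Of 14 listed 7 were tested, and 4 were negative (57.1%, against 25.4% of all features) and 3 positive (42.9%, against 18.0%), with a median of -0.19. The negative ones were transketolase Tkt (-0.46 ± 0.12, limma, adjusted p = 7.06e-06) and transaldolase Taldo1 (-0.23 ± 0.09, adjusted p = 0.000222) of the pentose phosphate pathway, each negative in 8 of 8 mice, with Me1 and Me2. The positive ones were the folate enzyme Mthfd1 (0.20 ± 0.07, adjusted p = 0.000347), Idh1 (0.11 ± 0.10, adjusted p = 0.0271) and Nnt (0.11 ± 0.11, adjusted p = 0.0369). Idh1 and Nnt both lost their call without SY521RL, SY524ROB+L, SY522ROB or TP4163, Idh1 also without SY518Z and Nnt also without TP4168 (adjusted p 0.0558 to 0.0913), and the positive count was 1 without any of the 4 shared mice. Me1, Tkt and Taldo1 are also on the list of NRF2-induced genes, where 18 of 21 tested were negative (85.7%, against 25.4% of all features), 0 positive and 3 not called (median -0.43, range -2.48 to 0.07). Me1 was the median gene of that list. The list was chosen with earlier results of these data known, so its share is a description only.

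Genes known to respond to ChREBP also lay on both sides. Of 12 tested, 5 were positive (41.7%, against 18.0% of all features), 2 negative (16.7%, against 25.4%) and 5 not called (median 0.02). The positive ones were Thrsp, G6pc (0.30 ± 0.42, limma, adjusted p = 0.0492), the glucose transporter Slc2a2 (0.18 ± 0.15, adjusted p = 0.00961), liver pyruvate kinase Pklr (0.17 ± 0.22, adjusted p = 0.046) and the zinc finger factor Klf10 (0.12 ± 0.12, adjusted p = 0.0377). G6pc, Pklr and Klf10 each lost their call when any 1 of 4 to 6 mice was left out (G6pc without SY521RL, SY518Z, TP4168, SY524ROB+L, SY522ROB or TP4163; Pklr without SY518Z, TP4168, SY524ROB+L, TP4205 or TP4163; Klf10 without SY518Z, TP4205, SY522ROB or TP4163; adjusted p 0.0506 to 0.125), and the positive count of the list was 2 without SY518Z or TP4163 and 3 without TP4168, SY524ROB+L, TP4205 or SY522ROB. The negative ones were Scd1 and Tm6sf2 (-0.12 ± 0.09, adjusted p = 0.0151). Arntl, a clock factor (-0.07 ± 0.15), and ketohexokinase Khk (0.03 ± 0.25) did not pass, although Arntl did without SY524ROB+L (adjusted p = 0.0429).

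Genes known to respond to thyroid hormone, among them Thrsp and Me1, had both signs. Of 10 tested, 5 were positive (18.0% of all features were), 2 negative (20.0%, against 25.4%) and 3 not called (median 0.12). The positive ones beside Thrsp and G6pc were the gluconeogenic enzyme Pck1 (0.47 ± 0.41, limma, adjusted p = 0.00573), the deiodinase Dio1, which makes active hormone (0.32 ± 0.17, adjusted p = 0.000401, 8 of 8 mice), and Idh3a (0.12 ± 0.09, adjusted p = 0.0104). The negative ones were Me1 and Bcl3 (-0.27 ± 0.17, adjusted p = 0.00141). Klf9 (0.11 ± 0.15) and Gpd2 (-0.08 ± 0.09) did not pass, although Gpd2 did without SY518Z (adjusted p = 0.032).

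Genes that PPAR-alpha induces, among them Fads2 and Me1, were 6 positive (37.5%, against 18.0% of all features), 4 negative (25%, against 25.4%) and 6 not called of 16 (median 0.02). Of the positive ones, Fabp1 lost its call without any 1 of 4 mice (limma, adjusted p 0.0519 to 0.0878). Of the negative ones, Pdk4 lost its call without any 1 of 4 mice (0.0518 to 0.0629). Beside Fads2 the enzymes of mitochondrial beta-oxidation Acaa2 (0.48 ± 0.15, limma, adjusted p = 1.79e-05) and Acadm (0.33 ± 0.29, adjusted p = 0.00623) were positive. On the side of Me1 was the peroxisomal enzyme Ehhadh (-0.36 ± 0.36, adjusted p = 0.0113), at -0.08 in SY and -0.64 in TP mice (adjusted p = 0.0189 for the difference). Of 8 glycerolipid synthesis and droplet genes tested, from 25 listed, 0 were positive (18.0% of all features were) and 1 negative (12.5%, against 25.4%). The negative one was the droplet protein Cidea (-0.23 ± 0.13, limma, adjusted p = 0.00114). The other 7 were not called (median of the 8 -0.00), beside 4726 of all 8348 features. In limma 1 of the 8 had an unadjusted p under 0.05. The pooled means of Gpat4 and Plin2, 0.11 and -0.09, joined series of opposite sign. For Gpat4 the SY series averaged -0.10 and the TP series 0.32 (adjusted p of the contrast 0.0163, limma). For Plin2 they averaged 0.07 and -0.24 (0.0232). No other gene of the 8 passed that contrast. The negative count was 4 on bl7 arrays, and 2 with 1 positive gene when only TP mice were used. Without any 1 mouse it stayed at 1.

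**Figure D4:**
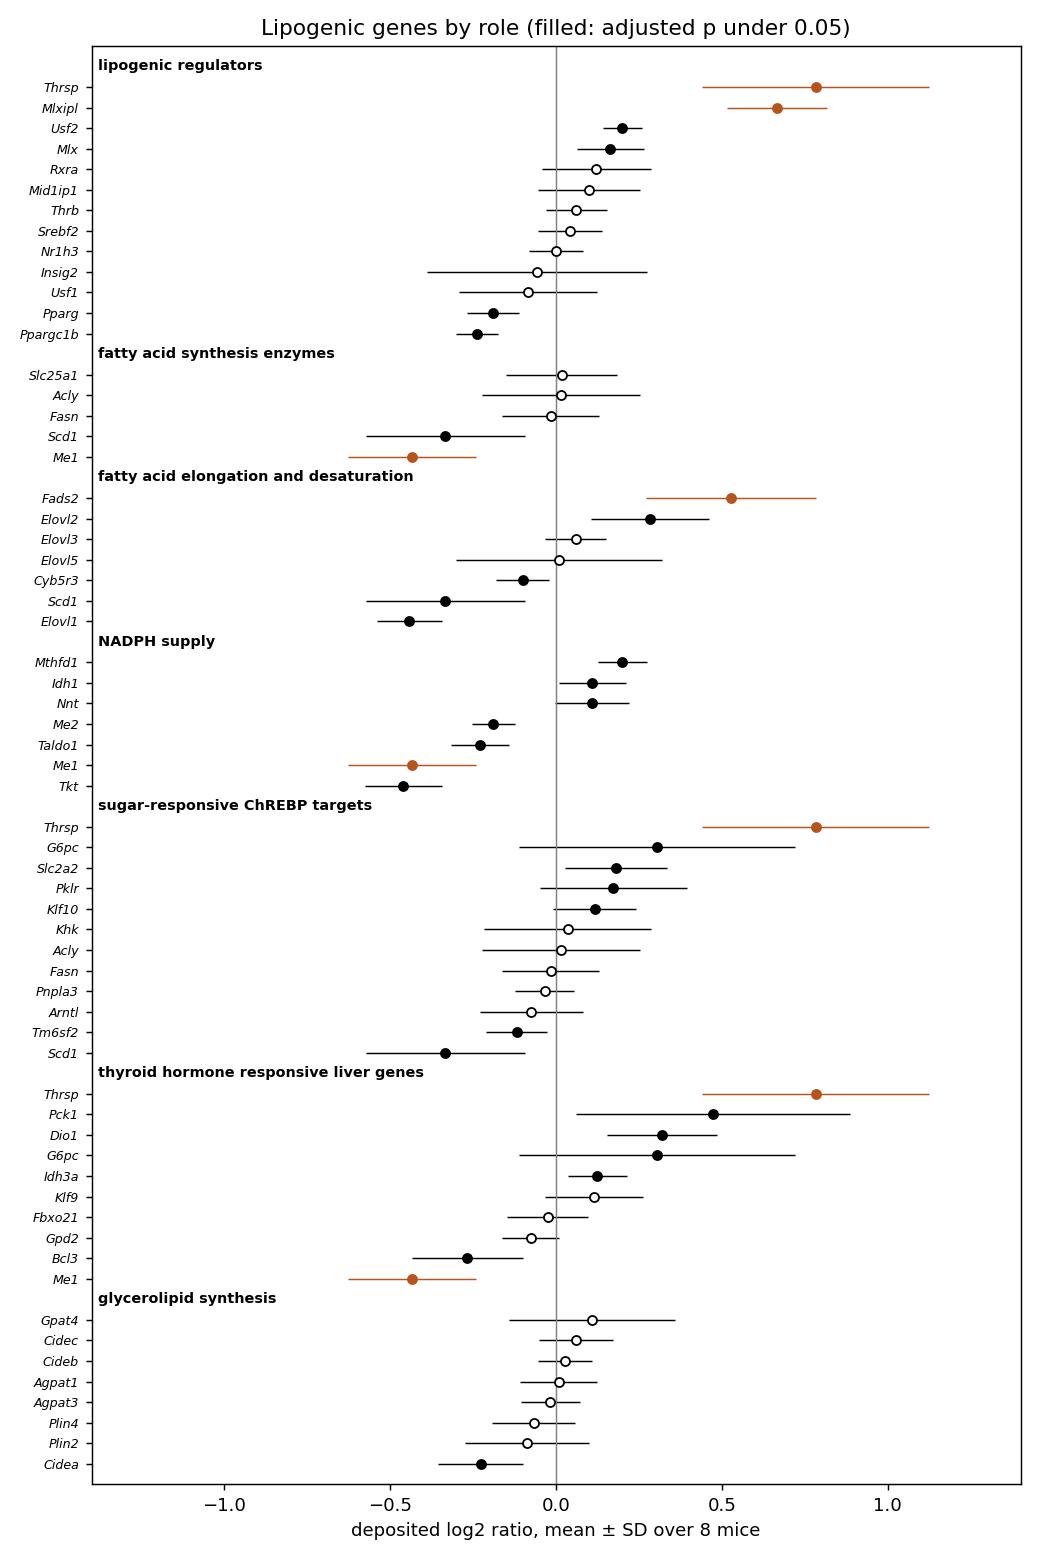
Deposited log2 ratio (horizontal axis, mean ± SD over 8 mice) of the tested genes on 7 lipogenic lists, ordered within each list. Filled points passed an adjusted p of 0.05, and the 4 members are in orange; Thrsp and Mlxipl stand apart to the right, while Fasn, Acly and Slc25a1 lie near 0.

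Ratios give no level, so the labelled tissue could not be checked by abundance. Of 14 hepatocyte markers 10 were tested, 3 positive (30.0%) and 3 negative (30.0%, or 5 genes without SY518Z), against 18.0% and 25.4% of all features (median 0.02, range -0.82 to 0.30). The heme carrier hemopexin, Hpx, was at -0.82 ± 0.26 (limma, adjusted p = 1.13e-05), farther from 0 than any of the 4 members, and the apolipoprotein Apoa1 at -0.52 ± 0.35 (adjusted p = 0.00114), each negative in 8 of 8 mice. Prothrombin, F2, was at 0.30 ± 0.09 in 8 of 8 mice (adjusted p = 4.23e-05). Albumin, Alb, was at 0.14 ± 0.30 (adjusted p = 0.21). The urea cycle enzyme Cps1 did not pass over all mice (0.30 ± 0.46, adjusted p = 0.0751) but differed between series, at -0.10 in SY and 0.70 in TP mice (adjusted p = 0.00413 for the difference). The part of these shifts in the ratios of the 4 genes was not tested. Of 5 tested markers of adipocytes, a cell type that also uses these lipogenic genes, 1 was positive and 1 negative. That is 20% each, near the 18.0% and 25.4% of all features (median -0.03, range -0.47 to 0.66). The positive one was Car3, also abundant in liver, whose probes read 0.25 and 1.06, and the negative one was Lpl, while the defining markers Adipoq (-0.03) and Fabp4 (-0.04) did not pass. Macrophage markers were 6 negative (60.0%, against 25.4% of all features) and 1 positive (10.0%, against 18.0%) of 10 (median -0.20, range -0.65 to 0.17). The positive one was Cd163 (0.17), and Marco (-0.16), Clec4f (-0.05) and Adgre1 (-0.03) did not pass. Of the negative ones, Lyz2 lost its call without any 1 of 4 mice. In TP mice alone 1 macrophage marker was negative. The part of these cells in the ratios of the 4 genes was not tested, and in whole liver a difference in cell number and one in RNA per cell cannot be told apart, nor, with the direction of the ratio unknown, a gain from a loss.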

How the data were processed

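Liver poly(A) RNA was hybridised to cDNA arrays in 2 colours, with 2 arrays for each of 8 treated mice. The deposited values are log2 ratios between the channels, and neither their direction nor their normalization is given in the sources used here. The authors' 144660 values all lie on the grid of ratios rounded to 1 decimal, and the step next to 0 is 0.138. Arrays had a median of 0 and were used as deposited. Probes were named from the platform annotation (7407 with 1 symbol, 437 with several, 1752 with none) and checked by Entrez identifier against RefSeq, which changed 0 symbols. Probes of a gene were averaged, then the arrays of a mouse. The 8348 features with values in at least 6 mice were tested against 0 with limma 3.58.1 in R 4.3.3 (lmFit, eBayes, two-sided), and 575 were left out. SY and TP mice were compared in a limma model with 2 groups. Each p measures only the spread among treated mice. The fit was tested on simulated data.

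The members and lists were chosen with earlier results of these data known. Genes were named by rule: the 4 members, their paralogs, up to 4 called and 2 uncalled genes of a list with the largest means, and the 3 genes closest to each member. Not all of these are printed, and some other list genes, such as Adgre1 and Cd163, were named outside the rule. Alternatives covered scaling, quantile normalization, probes, blanks, robust moderation, single arrays, array codes, identifier series, blocking by mouse, the control mice, a minimum of 1.2-fold and leaving out each mouse. Scaling to a common SD and centring within series were added after seeing the data. Figures were drawn with matplotlib 3.10.9.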

Additional observations from a re-analysis of the deposited data

Results flagged for a closer look

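Among 128 sets of mouse values checked for 1 mouse far from the rest (the 4 genes, the list genes and the closest matches), 7 stood out by Dixon's 95% critical values. Chance gives about 1 in 20 by the design of the test, and the rate for values rounded to a coarse grid was not computed. None of them was a value of Thrsp, Mlxipl, Fads2 or Me1. TP4215 read -0.485 for the citrate-cleaving enzyme Acly (next mouse -0.0688) and -0.336 for Fasn (next -0.0688), both core lipogenic enzymes, and also 0.432 for Klf9 (next 0.2) and 0.138 for the complement gene C1qc (next -0.2). SY518Z read 0.632 for transthyretin, Ttr (next 0), and 0.432 for Apoa2 (next 0). SY522ROB, the mouse with the lowest Thrsp and Fads2, read -0.138 for Slc2a2 (next 0.138). Without SY518Z, Ttr (adjusted p = 0.00865) and Apoa2 (0.00407) passed as negative in limma.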

How the results depend on the processing

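Thrsp and Mlxipl kept sign and call in 25 of 25 alternatives, Fads2 in 24 and Me1 in 23, and all 4 genes kept both without any 1 mouse. Some alternatives could not move a member. Every array had a median absolute value of 0.1375, so scaling to a common one changed no value. Each member had 1 probe and values in all 8 mice, so the settings for probes and blanks kept its mean. Robust moderation, the control taken as a mix and the 1.2-fold minimum changed the test but not the mean. Requiring 1.2-fold lost Fads2 (0.53, limma adjusted p = 0.0994) and Me1 (-0.43, 0.239), left 55 positive and 68 negative features, and left 2 positive and 2 negative genes on the lipogenic lists. On c3z arrays Me1 (-0.28) was lost, with 816 positive and 1375 negative features and 10 positive genes on the lipogenic lists. SY mice alone gave 823 and 1336 features. With the control taken as a mix of 7 mice there were 731 and 1074 features and 8 positive genes on the lipogenic lists. Without 1 mouse there were 1241 to 1515 positive and 1736 to 2207 negative features.

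The SY minus TP difference of Mlxipl turned to 0.12 with arrays at a common SD, 0.20 with quantile normalization and 0.051 on second arrays. Over 17 alternatives that of Thrsp was -0.52 to -0.27 and that of Me1 0.18 to 0.33. Without 1 mouse the differences ran from -0.52 to -0.29 for Thrsp, -0.056 to 0.079 for Mlxipl and -0.015 to 0.21 for Fads2. The 476 features called between series became 43 without SY521RL, 1249 without SY518Z, 57 without SY522ROB, 52 without SY524ROB+L, 77 without TP4205, 183 without TP4215 and 188 without TP4168, and 0 on first and 228 on second arrays.

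The correlation of Thrsp with Me1 turned to 0.735 with values centred within each series, 0.299 at a common SD and 0.175 with quantile normalization, and that of Mlxipl with Me1 to 0.0448 with quantile normalization and 0.0139 on second arrays. Without 1 mouse they ran from -0.24 to 0.144 and from -0.428 to 0.279, and Thrsp with Mlxipl from -0.549 to 0.0953. The cause of these changes was not tested.

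No paired analysis was possible because there was 1 group of treated mice, measured against control RNA. The number of arrays, the rounding of ratios and the missing control spread limit the precision.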
